A study of Mus musculus with 28 samples.

Results

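The 41 genes described here are antiviral interferon-stimulated genes (ISGs) of the mouse together with 4 transcription factors that act on them, out of 50600 genes in the deposited table. They were chosen by name, in part from their values in these data, because they were lower in p38i and higher in pre-p38i than in DMSO on day 3 of induction. All 41 names were found once in the table, the mean of each over the 28 libraries reached 1, and none was at 0 throughout. These means ran from 1.71 for Mx1 and Trim30a to 869 for Ifitm3.

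Type I interferons are secreted antiviral proteins that bind the IFNAR1 and IFNAR2 receptor and activate the kinases JAK1 and TYK2. The kinases phosphorylate STAT proteins such as STAT2, which joins IRF9 in the complex ISGF3. ISGF3 binds the interferon-stimulated response element (ISRE) in the promoters of ISGs, many of whose products block viral entry, RNA or translation. IRF1 and IRF7 bind related elements, and IRF7 also drives interferon genes, so the pathway can feed back on itself. Fibroblasts are a classical cell type in which this response is studied.

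The RNA came from mouse embryonic fibroblasts (MEFs) with a labelled WT genotype, and the study's methods describe them as cells of mid-gestation embryos from OG2 males, which carry an Oct4-GFP reporter, and 129 females. All induced cells received retroviruses for Sox2, Klf4 and Oct4 and were induced towards pluripotency in iCD1 medium. The inhibitor of p38 MAP kinase was SB203580. In p38i it was present during induction, in pre-p38i it was given before induction, including during infection, and in DMSO only the solvent was given. Each arm was sampled on days 1, 3, 5 and 7, and MEFs without factors were sampled untreated (MEF) and with the inhibitor (MEF p38i). There were 14 groups of 2 libraries each, 28 in all. No source says that the 2 libraries of a group came from separate cultures, so the p-values measure only the spread between these libraries.

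The values were read as TPM, transcript abundances scaled to the same library total, rounded down to whole numbers, so they are per length and can be compared between genes, and a gene listed at 0 may be anywhere below 1. Libraries summed to between 991287 and 992537, listed 12454 to 14170 genes at 1 or more, and held 1.95% to 6.18% of their total in mitochondrially encoded genes. The number of reads behind a value is unknown. Pou5f1, Sox2 and Klf4, the factors delivered by the viruses, summed to 18 to 20 in the 4 MEF and MEF p38i libraries and to 3301 to 6020 in the 24 induced ones. Of 8 fibroblast markers, Col1a1, Col1a2 and Vim were abundant in all libraries, while Lum was at 0 and 0 and Dcn at 7 and 7 in MEF, and Pdgfra was at 1 to 4 on day 7, and 4 markers of endothelium and 7 of T, NK and plasmacytoid dendritic cells were at 9 or below in all libraries, with Tek and Cd3g as the exceptions.

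The promoters of the genes are shown first because the ISRE is an element through which many ISGs are known to be induced. RefSeq promoters of the mouse assembly GRCm38.p6, from 250 bases before to 50 after the start of the gene, were at hand for 31 of the 41 genes. The ISRE core searched was GAAANNGAAA on either strand. It was present in 14 of the 31 promoters, or 45.2%, against 1079 of 27025 promoters in the whole table, or 3.99%. The core with 1 base of spacing, GAAANGAAA, was in 8 of 31, or 25.8%, against 3.70% of all promoters. The gamma-activated site core TTCNNNGAA, an element bound by STAT dimers, was also in 8 of 31, or 25.8%, against 9.55% of all promoters. These matches describe letters in a window and are not evidence of binding.

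In 10 of the 14 promoters a core lay upstream of the start, and stretches around these cores are printed below, 5′ to 3′ on the strand of the gene, with the cores in capitals. A core that begins with T lies on the other strand. Isg15 is shown because its 3 cores overlap in a single run.

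Isg15 promoter, chr4:156200860-156200911, minus strand: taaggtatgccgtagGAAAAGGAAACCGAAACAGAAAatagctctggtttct

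Oas1a promoter, chr5:120907526-120907560, minus strand: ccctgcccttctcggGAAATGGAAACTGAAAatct

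Bst2 promoter, chr8:71537572-71537617, minus strand: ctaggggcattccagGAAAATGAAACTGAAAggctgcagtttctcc

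Oas3 promoter, chr5:120777710-120777749, minus strand: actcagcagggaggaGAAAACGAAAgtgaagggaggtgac

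The next 3 stretches are those of Ifit1, Ifit3 and Ifit3b, which lie side by side on chromosome 19 and hold their cores on the other strand. The window of Ifit2, the other Ifit gene, held no ISRE core. The windows of Ifit3 and Ifit3b were identical over 74 bases, with 0 mismatches, and each holds 2 cores.

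Ifit1 promoter, chr19:34640770-34640828, plus strand: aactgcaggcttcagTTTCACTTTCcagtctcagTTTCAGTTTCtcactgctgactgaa

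Ifit3 promoter, chr19:34583358-34583431, plus strand: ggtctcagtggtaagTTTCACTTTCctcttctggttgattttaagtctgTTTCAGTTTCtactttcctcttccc

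Ifit3b promoter, chr19:34607754-34607827, plus strand: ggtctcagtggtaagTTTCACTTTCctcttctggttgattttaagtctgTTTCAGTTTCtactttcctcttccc

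The last set adds a regulator, Stat2, and 2 effectors of low level, Rsad2 and Trim30a, each with 1 core in the stretch shown.

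Stat2 promoter, chr10:128270261-128270300, plus strand: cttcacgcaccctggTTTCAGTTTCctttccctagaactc

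Rsad2 promoter, chr12:26456548-26456587, minus strand: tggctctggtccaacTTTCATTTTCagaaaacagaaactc

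Trim30a promoter, chr7:104465205-104465244, minus strand: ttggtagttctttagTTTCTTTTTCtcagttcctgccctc

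**Figure D1:**
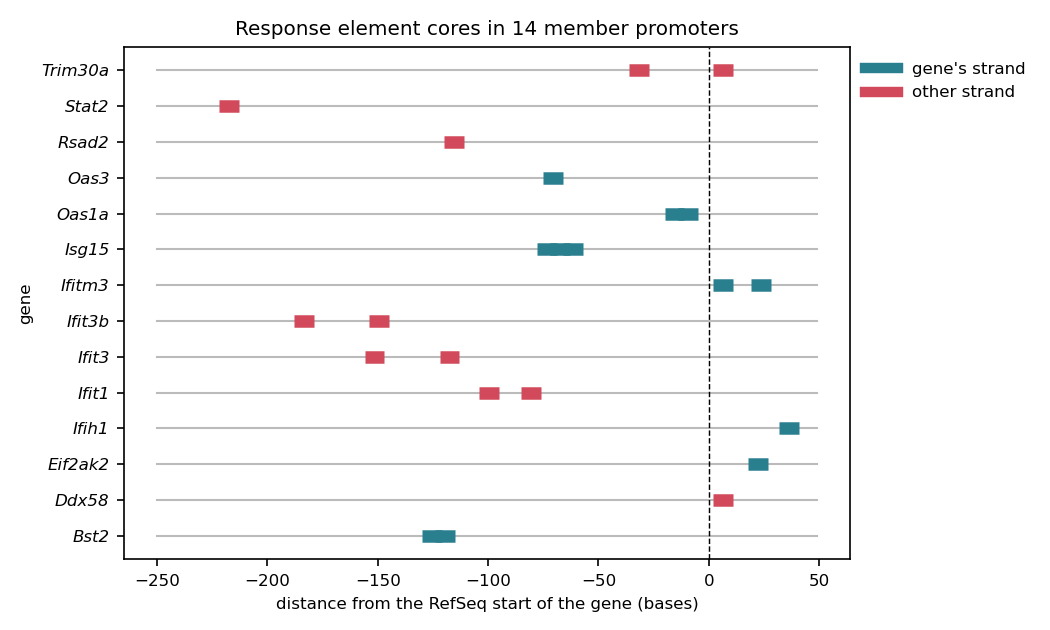
ISRE cores in the 14 promoters that hold one, by distance in bases from the RefSeq start of the gene (dashed line at 0); grey lines span the window from 250 bases before to 50 after the start, and colour gives the strand. In 10 genes a core lies before the start, and in Ddx58, Eif2ak2, Ifih1 and Ifitm3 the cores lie only after it.

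The sum of the 41 genes was 412 to 432 in the 4 MEF and MEF p38i libraries and 514 to 688 on day 1 in all arms. The DMSO sum rose to 4246 and 4909 by day 3 and 7170 and 7175 by day 5, and was 5038 and 5186 at day 7. The p38i sums were 1969 and 1966, 3774 and 3688, and 4113 and 3928 at these times. The pre-p38i sums were 6953 and 7297, 7226 and 7648, and 5202 and 5240. The 3 arms stood well apart on day 3, but the genes were chosen in part for that difference, so it is only a description. On days 5 and 7 pre-p38i was just above both DMSO libraries, and p38i lay below both other arms. With a tie given to the earlier day, 40 of the 41 genes had their highest DMSO mean on day 5 and 1, Oas1a, on day 7. In p38i the highest mean fell on day 5 for 13 genes and on day 7 for 28. In pre-p38i it fell on day 3 for 21, on day 5 for 18 and on day 7 for 2. These counts rest in part on the day 3 values that helped to choose the genes, and are given as a description. Tied means were those of Trim25 in DMSO and of Herc6, Mx2, Eif2ak2 and Ifi44 in p38i between days 5 and 7, and of Isg15 and Eif2ak2 in pre-p38i between days 3 and 5.

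**Figure D2:**
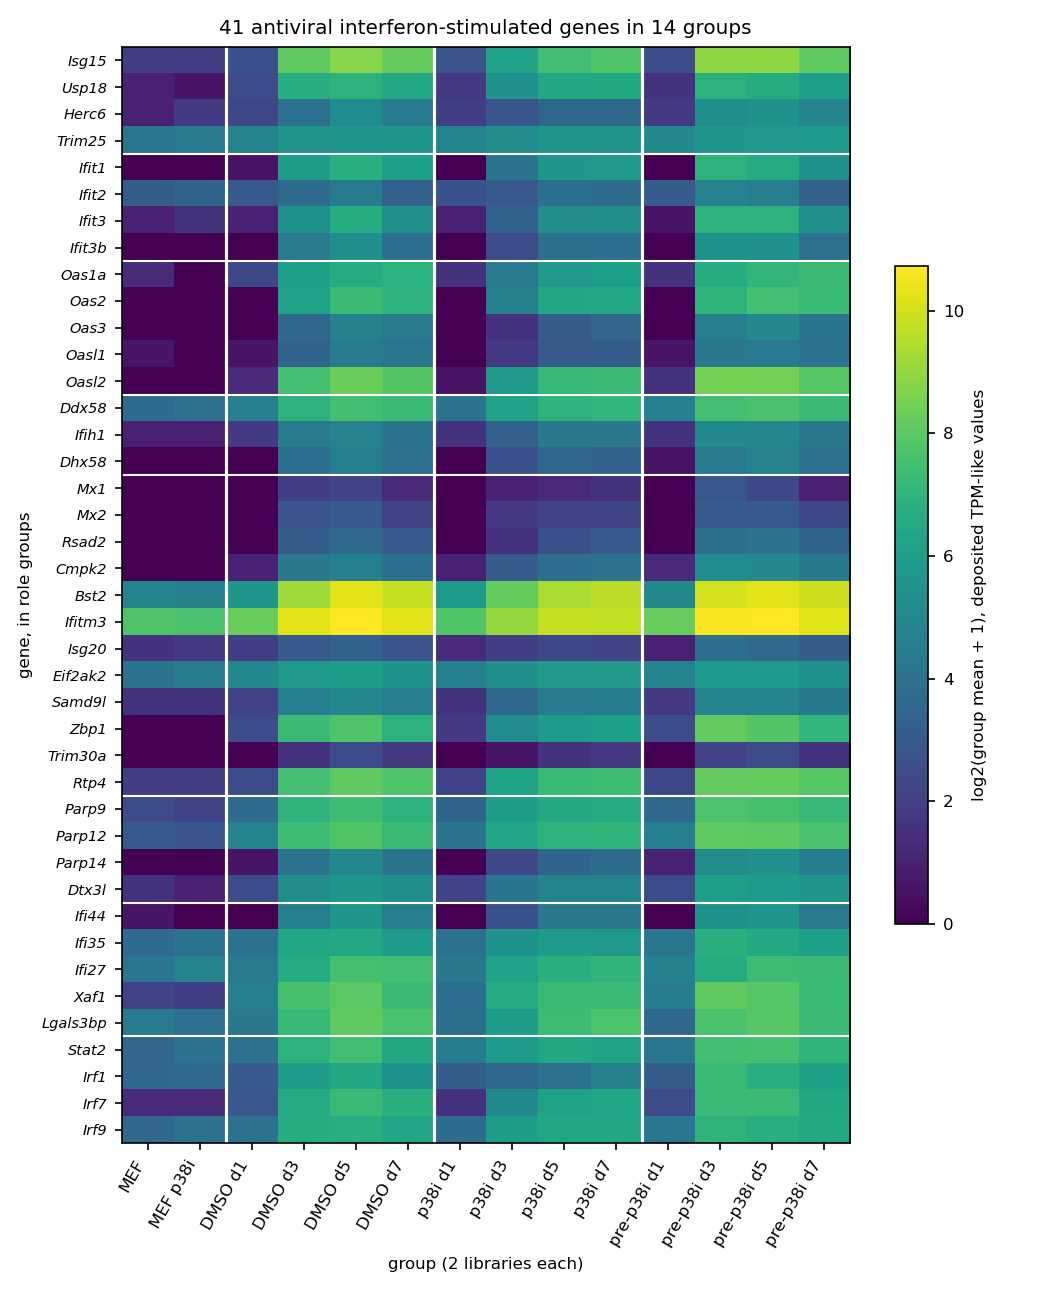
Group means of the 41 genes on a log2(value + 1) scale, with a pseudocount of 1, in rows by role and columns by group of 2 libraries; white lines part the roles and the arms. The DMSO and pre-p38i columns brighten on day 3, the p38i columns are darker on days 3 and 5, and 13 genes are at 0 in both MEF libraries.

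The first role group is the ISG15 pathway, in which a ubiquitin-like protein is attached to other proteins (by ligases such as HERC6 and TRIM25) and taken off by USP18. Isg15, the ubiquitin-like modifier itself, was 2 and 4 in MEF and 3 and 3 in MEF p38i, and on day 1 it was 5 and 6 in DMSO, 6 and 6 in p38i and 6 and 3 in pre-p38i. Isg15 in DMSO was 238 and 289 on day 3, 438 and 441 on day 5, then 278 and 300 on day 7. Isg15 in p38i was 65 and 76 on day 3, 166 and 183 on day 5, then 230 and 201 on day 7, and in pre-p38i it was 441 and 504 on day 3, 435 and 510 on day 5, then 260 and 273 on day 7. The 2 p38i libraries lay below both DMSO libraries on days 5 and 7, and the pre-p38i and DMSO libraries overlapped on day 5.

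Usp18, the ISG15 protease that also damps signalling at IFNAR2, was 1 and 1 in MEF and 0 and 1 in MEF p38i, and on day 1 it was 4 and 5 in DMSO, 3 and 2 in p38i and 1 and 3 in pre-p38i. Usp18 in DMSO was 93 and 111 on day 3, 120 and 122 on day 5, then 86 and 92 on day 7. Usp18 in p38i was 44 and 39 on day 3, 89 and 82 on day 5, then 89 and 83 on day 7, and in pre-p38i it was 121 and 117 on day 3, 94 and 106 on day 5, then 59 and 71 on day 7. On day 7 the p38i and DMSO values of Usp18 overlapped, while both pre-p38i values were below DMSO on days 5 and 7. Trim25, a ubiquitin ligase that acts on the sensor RIG-I, was 19 and 16 in MEF and 21 and 19 in MEF p38i, and on day 1 it was 28 and 27 in DMSO, 26 and 27 in p38i and 31 and 33 in pre-p38i. Trim25 in DMSO was 46 and 48 on day 3, 46 and 51 on day 5, then 47 and 50 on day 7. Trim25 in p38i was 35 and 40 on day 3, 49 and 43 on day 5, then 49 and 44 on day 7, and in pre-p38i it was 48 and 48 on day 3, 53 and 51 on day 5, then 58 and 59 on day 7. Trim25 was already present in MEFs, and its p38i and DMSO libraries overlapped on days 5 and 7. Herc6 ran from 1 to 47 over the 28 libraries.

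The Ifit genes encode proteins that bind viral RNA and hinder its translation. Ifit1, which recognises foreign RNA caps, was 0 and 0 in MEF and 0 and 0 in MEF p38i, and on day 1 it was 0 and 1 in DMSO, 0 and 0 in p38i and 0 and 0 in pre-p38i. Ifit1 in DMSO was 55 and 68 on day 3, 109 and 113 on day 5, then 61 and 70 on day 7. Ifit1 in p38i was 17 and 16 on day 3, 46 and 52 on day 5, then 58 and 51 on day 7, and in pre-p38i it was 114 and 131 on day 3, 86 and 106 on day 5, then 44 and 45 on day 7. Ifit1 in p38i was below DMSO on both later days, and in pre-p38i it went from above DMSO on day 3 to below it on day 7.

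Ifit3, a partner of IFIT1, was 1 and 1 in MEF and 3 and 1 in MEF p38i, and on day 1 it was 1 and 1 in DMSO, 1 and 1 in p38i and 0 and 1 in pre-p38i. Ifit3 in DMSO was 34 and 52 on day 3, 99 and 101 on day 5, then 40 and 42 on day 7. Ifit3 in p38i was 10 and 8 on day 3, 36 and 40 on day 5, then 40 and 37 on day 7, and in pre-p38i it was 105 and 135 on day 3, 111 and 127 on day 5, then 35 and 47 on day 7. The day 7 values of the 3 arms touched or overlapped. Ifit3b, a near copy of Ifit3, was 0 and 0 in MEF and 0 and 0 in MEF p38i, and on day 1 it was 0 and 0 in DMSO, 0 and 0 in p38i and 0 and 0 in pre-p38i. Ifit3b in DMSO was 14 and 26 on day 3, 38 and 42 on day 5, then 15 and 13 on day 7. Ifit3b in p38i was 5 and 4 on day 3, 12 and 17 on day 5, then 16 and 12 on day 7, and in pre-p38i it was 40 and 50 on day 3, 41 and 44 on day 5, then 14 and 16 on day 7. Ifit3b was at 0 in all MEF and day 1 libraries and overlapped among the arms on day 7. Transcripts of Ifit3 and Ifit3b are 97.8% identical over 1700 bases, so the split of reads between them is uncertain. Ifit2, present at 5 to 10 before day 3, ran up to 28.

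The Oas genes, which lie on chromosome 5, encode 2′-5′-oligoadenylate synthetases that sense double-stranded RNA and activate RNase L, and Oasl1 and Oasl2 are relatives of them. Oasl2, an OAS-like protein with ubiquitin-like domains, was 0 and 0 in MEF and 0 and 0 in MEF p38i, and on day 1 it was 1 and 2 in DMSO, 1 and 0 in p38i and 1 and 3 in pre-p38i. Oasl2 in DMSO was 188 and 182 on day 3, 328 and 309 on day 5, then 221 and 239 on day 7. Oasl2 in p38i was 53 and 52 on day 3, 155 and 130 on day 5, then 153 and 163 on day 7, and in pre-p38i it was 357 and 351 on day 3, 323 and 389 on day 5, then 235 and 253 on day 7. Both p38i libraries were below DMSO on days 5 and 7, and pre-p38i overlapped DMSO on both days.

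Oas2 was 0 and 0 in MEF and 0 and 0 in MEF p38i, and on day 1 it was 0 and 0 in DMSO, 0 and 0 in p38i and 0 and 0 in pre-p38i. Oas2 in DMSO was 73 and 74 on day 3, 153 and 161 on day 5, then 120 and 123 on day 7. Oas2 in p38i was 27 and 23 on day 3, 91 and 80 on day 5, then 95 and 80 on day 7, and in pre-p38i it was 128 and 123 on day 3, 187 and 183 on day 5, then 153 and 141 on day 7. Oas2 was at 0 in all 10 MEF and day 1 libraries, and on days 5 and 7 the arms stood in the order p38i, DMSO, pre-p38i with no overlap. Oas1a was 2 and 1 in MEF and 0 and 0 in MEF p38i, and on day 1 it was 4 and 4 in DMSO, 2 and 2 in p38i and 2 and 2 in pre-p38i. Oas1a in DMSO was 67 and 65 on day 3, 102 and 96 on day 5, then 111 and 116 on day 7. Oas1a in p38i was 21 and 19 on day 3, 52 and 55 on day 5, then 71 and 59 on day 7, and in pre-p38i it was 101 and 99 on day 3, 131 and 134 on day 5, then 152 and 160 on day 7. Oas1a kept that order, and its DMSO mean was higher on day 7 than on day 5. Oas1a is 97.6% identical to Oas1g over 1861 bases, and Oas1g reached 62. Oas3 and Oasl1 ran from 0 to 35 and from 0 to 21.

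The cytoplasmic RNA sensors are the helicases RIG-I (Ddx58), MDA5 (Ifih1) and LGP2 (Dhx58), of which RIG-I and MDA5 signal through MAVS to induce interferon. Ddx58 was 13 and 13 in MEF and 16 and 14 in MEF p38i, and on day 1 it was 22 and 25 in DMSO, 17 and 16 in p38i and 23 and 24 in pre-p38i. Ddx58 in DMSO was 120 and 125 on day 3, 173 and 184 on day 5, then 147 and 156 on day 7. Ddx58 in p38i was 70 and 73 on day 3, 129 and 114 on day 5, then 130 and 135 on day 7, and in pre-p38i it was 185 and 179 on day 3, 202 and 202 on day 5, then 161 and 155 on day 7. Ddx58 was the one sensor clearly present in MEFs, and its p38i values lay below DMSO on days 5 and 7.

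Ifih1 was 1 and 1 in MEF and 1 and 1 in MEF p38i, and on day 1 it was 2 and 3 in DMSO, 2 and 2 in p38i and 2 and 2 in pre-p38i. Ifih1 in DMSO was 22 and 21 on day 3, 24 and 28 on day 5, then 17 and 16 on day 7. Ifih1 in p38i was 10 and 8 on day 3, 20 and 17 on day 5, then 17 and 19 on day 7, and in pre-p38i it was 32 and 34 on day 3, 31 and 32 on day 5, then 18 and 19 on day 7. Ifih1 in p38i was below DMSO on day 5 and touched it on day 7. Dhx58 was 0 and 0 in MEF and 0 and 0 in MEF p38i, and on day 1 it was 0 and 0 in DMSO, 0 and 0 in p38i and 1 and 0 in pre-p38i. Dhx58 in DMSO was 13 and 15 on day 3, 26 and 22 on day 5, then 15 and 15 on day 7. Dhx58 in p38i was 4 and 7 on day 3, 12 and 11 on day 5, then 10 and 9 on day 7, and in pre-p38i it was 21 and 21 on day 3, 26 and 26 on day 5, then 15 and 16 on day 7. Dhx58 in p38i was below DMSO on both days, and its pre-p38i values touched those of DMSO.

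The effectors act directly on viruses or infected cells. Ifitm3, a membrane protein that blocks viral entry by fusion, was 224 and 217 in MEF and 204 and 190 in MEF p38i, and on day 1 it was 297 and 327 in DMSO, 223 and 219 in p38i and 296 and 301 in pre-p38i. Ifitm3 in DMSO was 1136 and 1300 on day 3, 1671 and 1699 on day 5, then 1257 and 1269 on day 7. Ifitm3 in p38i was 518 and 509 on day 3, 922 and 843 on day 5, then 886 and 819 on day 7, and in pre-p38i it was 1574 and 1709 on day 3, 1637 and 1744 on day 5, then 1182 and 1160 on day 7. Ifitm3 had the highest level of the 41 genes and was present in MEFs, and its p38i values stayed below DMSO on days 5 and 7.

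Bst2, tetherin, which holds budding virus at the cell surface, was 27 and 26 in MEF and 27 and 23 in MEF p38i, and on day 1 it was 46 and 54 in DMSO, 54 and 59 in p38i and 34 and 33 in pre-p38i. Bst2 in DMSO was 523 and 645 on day 3, 1291 and 1205 on day 5, then 892 and 871 on day 7. Bst2 in p38i was 285 and 294 on day 3, 627 and 672 on day 5, then 788 and 763 on day 7, and in pre-p38i it was 984 and 1020 on day 3, 1180 and 1270 on day 5, then 937 and 959 on day 7. The p38i values of Bst2 were below DMSO on days 5 and 7, and the pre-p38i and DMSO values overlapped on day 5. Rtp4, a zinc-finger protein that lowers replication of RNA viruses, was 4 and 2 in MEF and 3 and 3 in MEF p38i, and on day 1 it was 4 and 5 in DMSO, 4 and 3 in p38i and 4 and 4 in pre-p38i. Rtp4 in DMSO was 178 and 185 on day 3, 275 and 271 on day 5, then 215 and 220 on day 7. Rtp4 in p38i was 76 and 74 on day 3, 145 and 152 on day 5, then 181 and 156 on day 7, and in pre-p38i it was 272 and 290 on day 3, 282 and 306 on day 5, then 240 and 233 on day 7. Rtp4 kept the order p38i, DMSO, pre-p38i on days 5 and 7 without overlap, and 296 bases of it are shared with Gm45338, which reached 5. Of the other 9 effectors, Zbp1, a sensor of Z-form nucleic acid that can start cell death, ran from 0 to 286, and Eif2ak2, the kinase PKR that halts translation, from 15 to 65. Mx1 and Mx2, dynamin-like GTPases, reached 7 and 8, and 843 bases of their transcripts are 95.3% identical.

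The PARP group holds ADP-ribosyltransferases and DTX3L, the ligase that partners PARP9. Parp12 was 6 and 8 in MEF and 6 and 6 in MEF p38i, and on day 1 it was 24 and 29 in DMSO, 15 and 18 in p38i and 27 and 21 in pre-p38i. Parp12 in DMSO was 158 and 173 on day 3, 221 and 224 on day 5, then 158 and 156 on day 7. Parp12 in p38i was 83 and 80 on day 3, 120 and 125 on day 5, then 128 and 128 on day 7, and in pre-p38i it was 270 and 269 on day 3, 256 and 261 on day 5, then 199 and 195 on day 7. Parp12 stood in the order p38i, DMSO, pre-p38i without overlap on days 5 and 7.

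Parp9 was 4 and 5 in MEF and 3 and 4 in MEF p38i, and on day 1 it was 10 and 15 in DMSO, 9 and 11 in p38i and 12 and 10 in pre-p38i. Parp9 in DMSO was 112 and 134 on day 3, 158 and 172 on day 5, then 119 and 126 on day 7. Parp9 in p38i was 62 and 62 on day 3, 84 and 92 on day 5, then 96 and 94 on day 7, and in pre-p38i it was 197 and 208 on day 3, 192 and 200 on day 5, then 141 and 137 on day 7. Parp9 kept the order seen for Parp12.

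Dtx3l was 2 and 2 in MEF and 1 and 1 in MEF p38i, and on day 1 it was 5 and 4 in DMSO, 4 and 3 in p38i and 4 and 5 in pre-p38i. Dtx3l in DMSO was 36 and 41 on day 3, 45 and 51 on day 5, then 37 and 41 on day 7. Dtx3l in p38i was 18 and 16 on day 3, 28 and 25 on day 5, then 27 and 27 on day 7, and in pre-p38i it was 68 and 63 on day 3, 57 and 58 on day 5, then 49 and 46 on day 7. Dtx3l kept this order too, but the exons of Parp9 and Dtx3l overlap on opposite strands and the strand setting of the counting is not stated, so reads of the pair may not be told apart. Parp14 ran from 0 to 44.

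The other induced genes have less settled roles. Xaf1, a partner of the caspase inhibitor XIAP, was 4 and 3 in MEF and 4 and 2 in MEF p38i, and on day 1 it was 26 and 22 in DMSO, 16 and 11 in p38i and 21 and 24 in pre-p38i. Xaf1 in DMSO was 186 and 198 on day 3, 246 and 259 on day 5, then 148 and 167 on day 7. Xaf1 in p38i was 98 and 92 on day 3, 163 and 147 on day 5, then 141 and 158 on day 7, and in pre-p38i it was 264 and 285 on day 3, 244 and 236 on day 5, then 148 and 154 on day 7. Xaf1 in p38i was below DMSO on day 5 and overlapped it on day 7.

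Lgals3bp, a secreted glycoprotein that binds galectin-3, was 23 and 18 in MEF and 16 and 15 in MEF p38i, and on day 1 it was 17 and 20 in DMSO, 13 and 16 in p38i and 9 and 14 in pre-p38i. Lgals3bp in DMSO was 128 and 159 on day 3, 275 and 273 on day 5, then 196 and 205 on day 7. Lgals3bp in p38i was 70 and 58 on day 3, 166 and 159 on day 5, then 204 and 203 on day 7, and in pre-p38i it was 204 and 195 on day 3, 244 and 238 on day 5, then 161 and 154 on day 7. On day 7 the p38i values of Lgals3bp overlapped DMSO while the pre-p38i values were below it. Ifi27 was 20 and 15 in MEF and 23 and 31 in MEF p38i, and on day 1 it was 17 and 22 in DMSO, 17 and 20 in p38i and 29 and 22 in pre-p38i. Ifi27 in DMSO was 81 and 110 on day 3, 190 and 181 on day 5, then 182 and 176 on day 7. Ifi27 in p38i was 72 and 69 on day 3, 114 and 108 on day 5, then 130 and 127 on day 7, and in pre-p38i it was 96 and 100 on day 3, 169 and 156 on day 5, then 160 and 158 on day 7. Ifi27 in pre-p38i overlapped DMSO on day 3 and was below it on days 5 and 7, as it was in p38i. Ifi44 and Ifi35 reached 53 and 112.

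The 4 regulators act on the promoters of the other genes. Stat2, a STAT subunit of ISGF3, was 10 and 11 in MEF and 16 and 16 in MEF p38i, and on day 1 it was 15 and 15 in DMSO, 23 and 20 in p38i and 16 and 19 in pre-p38i. Stat2 in DMSO was 114 and 127 on day 3, 163 and 177 on day 5, then 79 and 93 on day 7. Stat2 in p38i was 57 and 55 on day 3, 86 and 84 on day 5, then 81 and 71 on day 7, and in pre-p38i it was 178 and 172 on day 3, 190 and 184 on day 5, then 121 and 125 on day 7. Stat2 in p38i was higher than DMSO on day 1, lower on day 5 and overlapping with it on day 7, and pre-p38i was above DMSO on days 5 and 7.

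Irf9, the DNA-binding part of ISGF3, was 10 and 11 in MEF and 17 and 14 in MEF p38i, and on day 1 it was 14 and 17 in DMSO, 13 and 13 in p38i and 17 and 18 in pre-p38i. Irf9 in DMSO was 95 and 100 on day 3, 103 and 110 on day 5, then 82 and 81 on day 7. Irf9 in p38i was 58 and 64 on day 3, 80 and 85 on day 5, then 89 and 82 on day 7, and in pre-p38i it was 133 and 117 on day 3, 103 and 109 on day 5, then 88 and 88 on day 7. Of the 4 regulators Irf9 had the smallest differences between arms after day 3, and its p38i and DMSO values met on day 7. Irf9 shares exon bases with Rnf31 on the same strand, which reached 21. Irf7, the factor that amplifies interferon genes, was 2 and 1 in MEF and 1 and 2 in MEF p38i, and on day 1 it was 6 and 7 in DMSO, 2 and 2 in p38i and 4 and 5 in pre-p38i. Irf7 in DMSO was 88 and 103 on day 3, 147 and 153 on day 5, then 101 and 106 on day 7. Irf7 in p38i was 34 and 34 on day 3, 74 and 68 on day 5, then 76 and 79 on day 7, and in pre-p38i it was 149 and 153 on day 3, 158 and 159 on day 5, then 89 and 83 on day 7. Both p38i values of Irf7 were below those of DMSO at each of the 4 times, and in pre-p38i it was above DMSO on day 5 and below on day 7. Exons of Irf7 overlap those of Phrf1, which reached 51, on the opposite strand.

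Irf1, an early factor induced by interferon and by NF-kappaB, was 9 and 14 in MEF and 13 and 11 in MEF p38i, and on day 1 it was 8 and 7 in DMSO, 8 and 9 in p38i and 9 and 7 in pre-p38i. Irf1 in DMSO was 45 and 71 on day 3, 86 and 86 on day 5, then 43 and 47 on day 7. Irf1 in p38i was 11 and 11 on day 3, 14 and 17 on day 5, then 27 and 22 on day 7, and in pre-p38i it was 139 and 163 on day 3, 104 and 108 on day 5, then 60 and 76 on day 7. Irf1 in p38i stayed at 11 and 11 on day 3, within the range of 9 to 14 seen in untreated MEFs, and reached 22 and 27 by day 7. In pre-p38i Irf1 was above DMSO on days 3, 5 and 7.

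**Figure D3:**
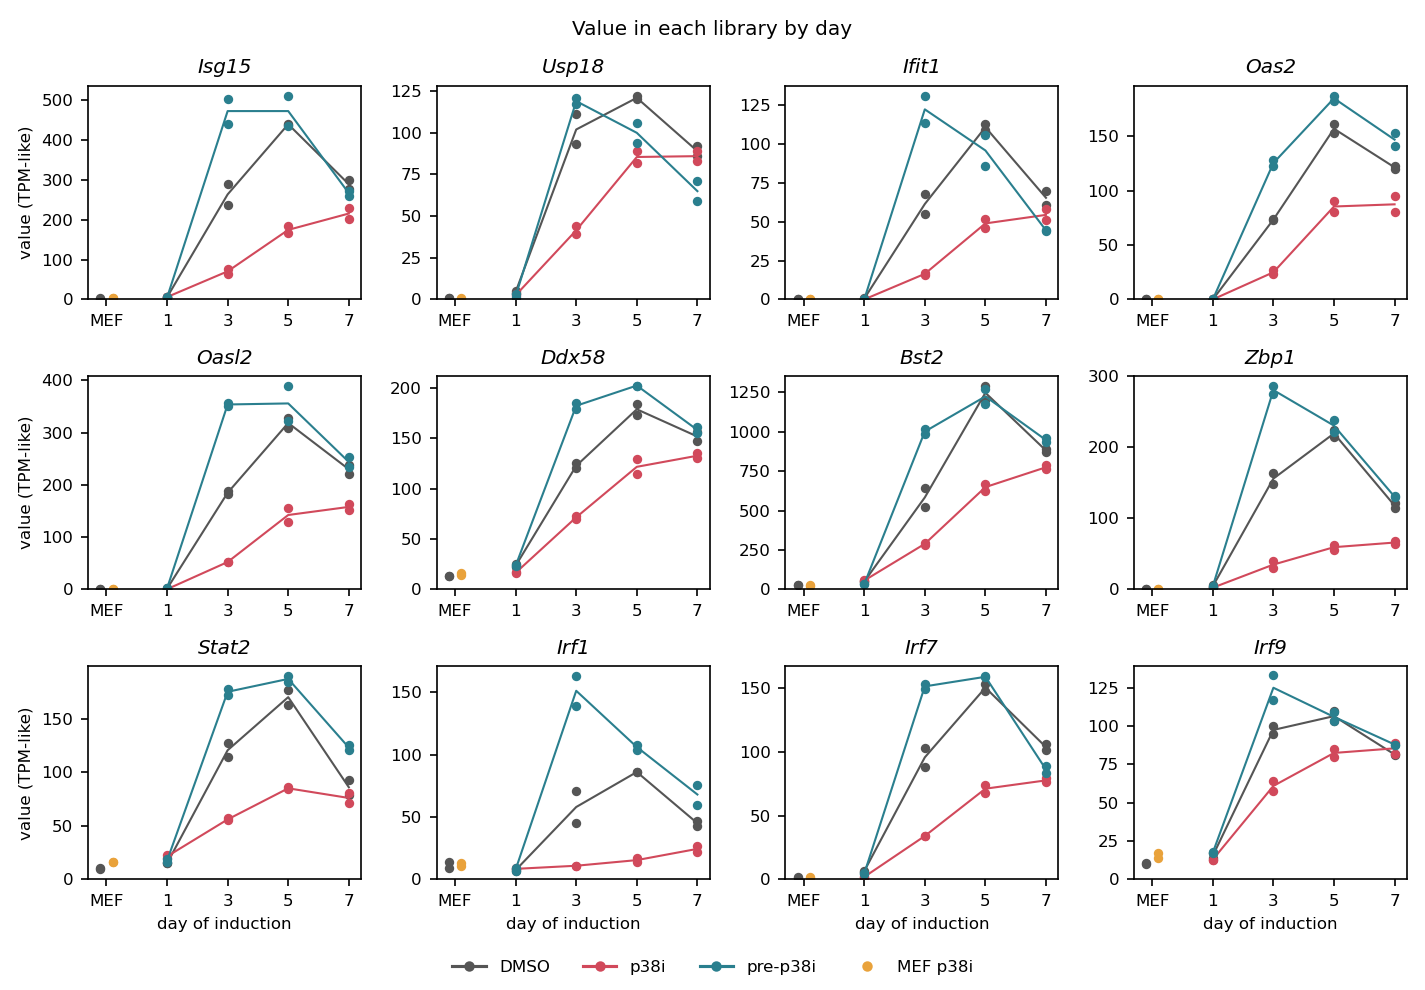
Values of 12 of the genes in each library (points) against day of induction, with lines through the means of 2 libraries of each arm and the MEF and MEF p38i libraries at the left; each panel has its own axis from 0. The p38i lines run lowest on days 3 and 5 in all 12 panels, and Irf1 in p38i stays between 8 and 27 throughout.

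Changes were tested with limma on log2(value + 1) in 1 fit over the 14 groups and the 13230 genes whose mean reached 1, and a gene was called at a Benjamini-Hochberg adjusted p under 0.05 over all 13230 genes. Log2 differences below are on that scale, with the standard error (SE) of the fit, and understate the change of low genes. An exact permutation test of 2 libraries against 2 cannot go below p = 0.333. The 2 inhibitor arms were compared with the same DMSO libraries.

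The inhibitor on MEFs without factors gave 7 calls among the 41 genes. Of the 41, 13 were at 0 in all libraries compared and could not be called, so the shares of all genes are not a matched background. Against untreated MEFs, 5 of 41 were higher, where 9.73% of all genes tested were, and 2 were lower, where 8.15% were, and 34 were not called. The 3 with the largest log2 differences upwards were Herc6 (0.79 ± 0.20 SE, adjusted p = 0.00825, limma), Ifi27 (0.60 ± 0.16, adjusted p = 0.0118) and Stat2 (0.57 ± 0.09, adjusted p = 0.000184), followed by Irf9 and Eif2ak2. Oas1a went from 2 and 1 to 0 in both libraries (adjusted p = 4.11e-07, limma), and Dtx3l fell by 0.58 on the log2 scale (adjusted p = 0.00219). These are genes at 31 or below, where 1 unit of the rounded values is a large step, and 1 of the 7 calls held in all alternatives tried.

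Between MEF and DMSO day 1, 23 of the 41 were higher, 1 was lower and 17 were not called, against 36.6% higher and 18.9% lower among all genes. Among genes above 0 in MEF, the largest log2 differences were those of Xaf1 (2.48 ± 0.18 SE, adjusted p = 2.76e-10, limma), from 4 and 3 to 26 and 22, and Parp12 (1.79 ± 0.11, adjusted p = 3.58e-11). Zbp1 went from 0 in both MEF libraries to 3 and 6 (adjusted p = 7.43e-10). Irf1 was the gene that fell, by 0.53 on the log2 scale (adjusted p = 0.0258). Quantile normalization moved the median of all genes in this comparison from 0.14 to -0.07 and that of the 41 genes from 0.50 to 0.08, and gave 15 higher and 6 lower, so the direction of the smaller changes depends on the scaling, and Ifit1, at 0 and 1 on day 1, changed sign.

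From day 1 to day 3 in DMSO, 41 of 41 genes were higher against 20.5% of all genes, with a median log2 difference of 2.95 against -0.01. From day 3 to day 5, 26 were higher and 15 not called against 13.8% of all genes, with a median of 0.58 against 0.08. Both comparisons use the DMSO day 3 libraries, whose values helped to choose the genes, and 12 of the genes had no value above 1 in MEF or day 1 libraries, so that they could pass the filter on low values only by being higher later. These counts are therefore given as a description. The log2 differences from day 1 to day 3 ran from 0.72 for Ifit2 and 0.75 for Trim25, both present in MEFs, to 6.25 for Oasl2 and 6.22 for Oas2. From day 3 to day 5, 10 were called without DMSO d3 replicate 1 and 15 without DMSO d5 replicate 2.

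From day 5 to day 7 in DMSO, 28 of the 41 genes fell and 13 were not called, against 16.4% of all genes. The median log2 difference was -0.53 against -0.05 for all genes. The 12 genes with no value above 1 in MEF or day 1 libraries could pass the filter only through later values. Ifit3b and Ifi44 are among them. The count is therefore given as a description, and the share of all genes is not a matched background. Ifit3b fell by 1.45 on the log2 scale (SE 0.22, adjusted p = 5.87e-05, limma), Ifit3 by 1.27 (adjusted p = 0.00242) and Ifi44 by 1.11 (adjusted p = 0.00164). Among the regulators Stat2 fell by 0.98 (adjusted p = 2.53e-07) and Irf1 by 0.92 (adjusted p = 0.00148), with Irf7 and Irf9 also called. Oas1a, with a log2 difference of 0.20 (adjusted p = 0.272), and Trim25, with 0.00, were the 2 genes not below 0. Without DMSO d5 replicate 2 or DMSO d7 replicate 1, 17 genes were called.

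On day 3, the comparison from which the genes were chosen, 40 of the 41 were past the threshold as lower in p38i than in DMSO, where 16.2% of all genes were, and 31 as higher in pre-p38i, where 13.8% were. A fit of only the groups compared gave 20 and 9. As a description, the group mean in p38i was 18.2% (Oas3) to 79.8% (Trim25) of the DMSO mean over the 39 genes whose DMSO mean reached 5, with a median of 41.7%. The pre-p38i mean was 102% (Trim25) to 279% (Ifit3) of DMSO, with a median of 165%. In p38i the 1 gene outside the threshold was Ifi27, with 72 and 69 against 81 and 110, and in pre-p38i the gene nearest outside it was Isg20, with 10 and 17 against 6 and 8, and the gene nearest inside it Xaf1, with 264 and 285 against 186 and 198.

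During treatment on day 1, p38i differed from DMSO in 11 of the 41 genes, 10 lower against 12.6% of all genes and 1 higher against 3.47%. Irf7 was lowest relative to DMSO, at 2 and 2 against 6 and 7 (log2 difference -1.32 ± 0.16 SE, adjusted p = 1.17e-05, limma), followed by Xaf1 (-0.80, adjusted p = 0.00342) and Oasl2 (-0.79, adjusted p = 0.0465). Stat2 went against the others, at 23 and 20 against 15 and 15 (0.49 ± 0.09, adjusted p = 0.000856). Quantile normalization gave 7 calls, leaving out p38i d1 replicate 2 gave 7, and a fit of the 2 groups alone gave 2.

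On day 5, 37 of the 41 genes were lower in p38i than in DMSO and none was higher, against 18.7% of all genes lower. The genes were chosen in part because they were lower in p38i on day 3 of the same arms. Of them, 12 could also pass the filter on low values only through their values on later days. The count is therefore given as a description, and the share of all genes is not a matched background. The same limit holds for the later comparisons of either arm with DMSO below. The median log2 difference was -0.90 against -0.08 for all genes, and over 39 genes the p38i mean was a median of 52.4% of DMSO. Irf1 had the largest difference, -2.40 ± 0.19 SE (adjusted p = 2.87e-08, limma), at 14 and 17 against 86 and 86, or 18.0% of DMSO. Zbp1 (-1.87 ± 0.18, adjusted p = 3.18e-07) and Herc6 (-1.62 ± 0.20, adjusted p = 5.24e-06) followed. All 5 Oas genes, all 3 sensors, all 4 genes of the PARP group, all 5 other induced genes and all 4 regulators were called, with 11 of 12 effectors, 3 of 4 Ifit genes and 2 of 4 genes of the ISG15 pathway. The genes not called were Usp18 (-0.50, adjusted p = 0.179), Trim25 (-0.08, adjusted p = 0.585), Ifit2 (-0.53, adjusted p = 0.0589) and Eif2ak2 (-0.17, adjusted p = 0.144), of which the last 3 were present in MEFs.

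By day 7, 12 genes were lower in p38i than in DMSO, 1 was higher and 28 were not called, against 17.6% lower and 16.5% higher among all genes. Oasl1 (-1.04 ± 0.32 SE, adjusted p = 0.0178, limma), Oas3 (-0.90 ± 0.14, adjusted p = 3.61e-05) and Irf1 (-0.86 ± 0.19, adjusted p = 0.00189) had the largest log2 differences, and 4 of the 5 Oas genes were lower but none of the 4 Ifit genes. Eif2ak2 was higher, at 54 and 57 against 44 and 43 (0.34 ± 0.08, adjusted p = 0.00314). Over 38 genes the p38i mean was a median of 79.9% of DMSO, from 45.7% for Oasl1 to 144% for Ifit2, whose own difference was not called (0.48, adjusted p = 0.072). Without p38i d7 replicate 2, 8 genes were called in all.

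The narrowing between days 5 and 7 was then tested as a difference of differences, a comparison added after the values by day had been seen. It was higher than 0 for 14 of the 41 genes and lower for none, against 4.11% of all genes higher, and the log2 estimate was above 0 for all 41. Irf1 had the largest estimate (1.55 ± 0.27 SE, adjusted p = 0.00259, limma), before Ifit3b (1.41 ± 0.31, adjusted p = 0.0113) and Parp14 (1.19 ± 0.30, adjusted p = 0.0237). Within p38i itself, 0 of 41 genes were called between day 5 and day 7 by limma and 5 had an unadjusted p under 0.05, with log2 differences from -0.25 to 0.63. So the DMSO values fell by day 7 while those of p38i showed no called change. The count of 14 was 3 to 9 when any of the 8 libraries was left out, lowest without DMSO d5 replicate 2.

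After treatment before induction, day 1 showed 4 of the 41 genes lower than in DMSO, against 6.24% of all genes, and none higher. These were Usp18 (-0.95 ± 0.26 SE, adjusted p = 0.0226, limma), Oas1a (-0.74 ± 0.13, adjusted p = 0.000621), Lgals3bp (-0.67, adjusted p = 0.00582) and Bst2, at 34 and 33 against 46 and 54 (-0.56, adjusted p = 0.000261). Without pre-p38i d1 replicate 2 there were 7 calls.

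On day 5, 2 genes were higher in pre-p38i, Oas1a (0.42 ± 0.13 SE, adjusted p = 0.0185, limma) and Oas3 (0.42 ± 0.14, adjusted p = 0.027), against 14.3% of all genes higher, and the median log2 difference was 0.11 against 0.04. Leaving out either pre-p38i d5 replicate gave 0 calls and leaving out either DMSO d5 replicate gave 1. On day 7, 6 were higher, against 15.4% of all genes, and 1 was lower, against 14.5%. Irf1 (0.58 ± 0.19, adjusted p = 0.0301), Stat2 (0.52 ± 0.09, adjusted p = 0.000238) and Oas1a (0.46 ± 0.13, adjusted p = 0.00946) were higher, with Parp12, Oas2 and Trim25, and Ifit1 was lower (-0.54 ± 0.20, adjusted p = 0.0486). None of these 7 calls held in all alternatives, and 1 to 4 were made without 1 of the 4 libraries, lowest without DMSO d7 replicate 1.

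From day 5 to day 7 within pre-p38i, 32 of the 41 genes fell and 9 were not called, against 19.1% of all genes. The median log2 difference was -0.62. The count is a description for the reason given for the fall in DMSO, and Ifit3b and Mx1 are among the 12 genes concerned. Ifit3 fell by 1.53 on the log2 scale (adjusted p = 0.000365, limma), Ifit3b by 1.44 (adjusted p = 4e-05) and Mx1 by 1.32 (adjusted p = 0.00315), and Oas1a and Trim25 again had estimates above 0 (0.23 and 0.17). No difference between this fall and that in DMSO was called by limma, 0 of 41, with 2 at an unadjusted p under 0.05 and estimates from -0.67 to 0.38. Both comparisons were added after the values by day had been seen.

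**Figure D4:**
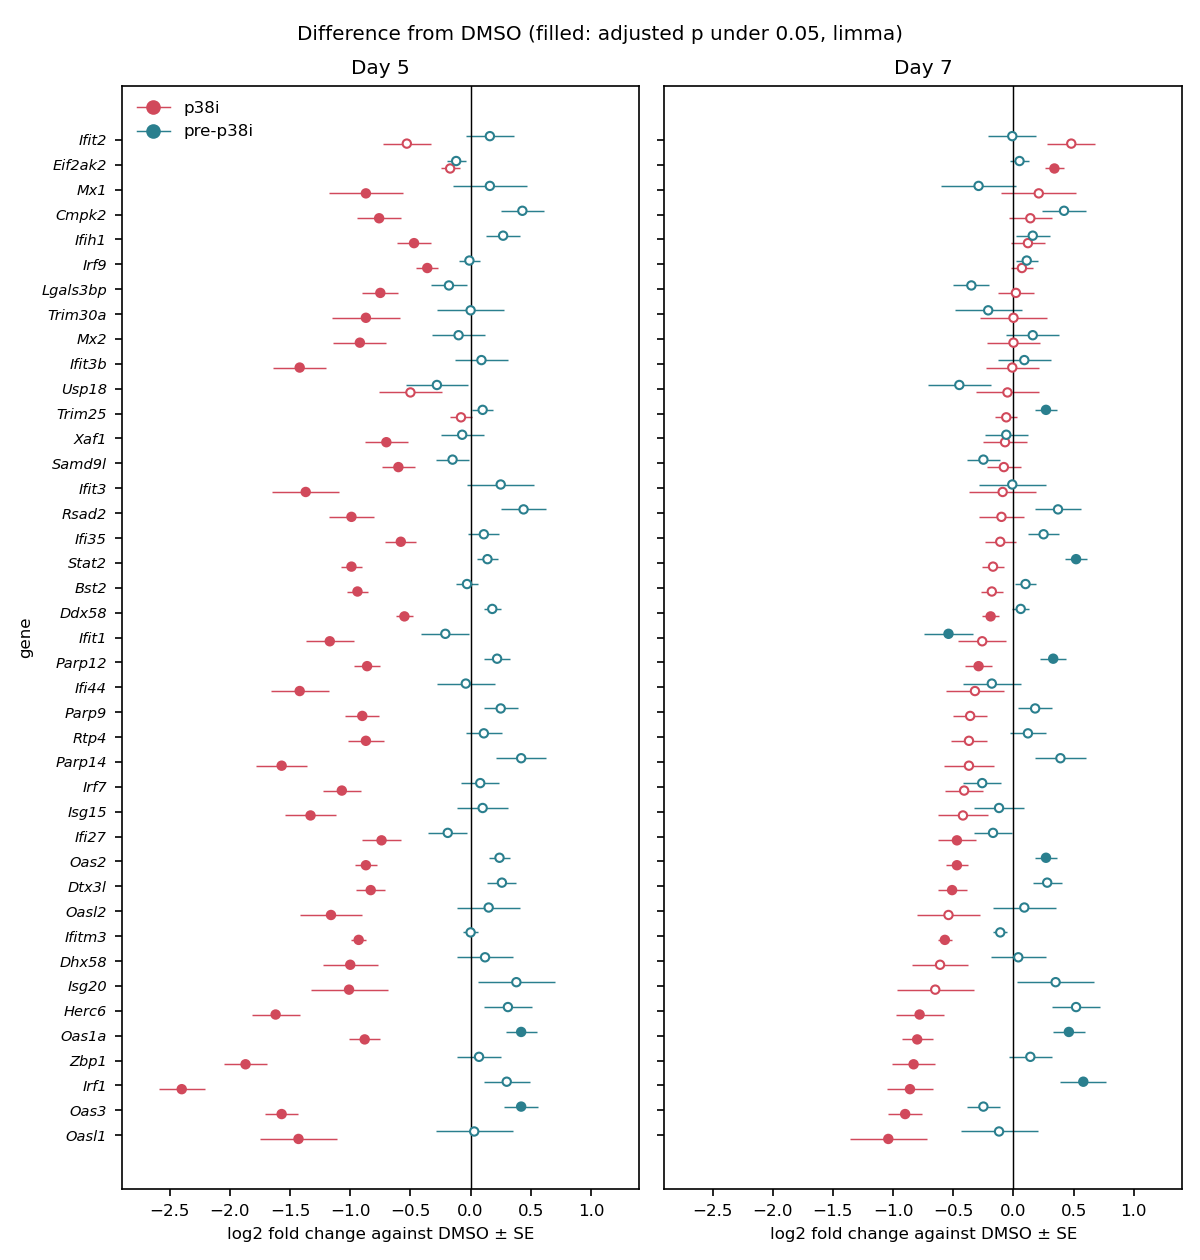
Log2 differences from DMSO of the 41 genes on days 5 and 7 for p38i (red) and pre-p38i (teal), with bars of 1 SE from the limma fit of all 28 libraries; filled points have an adjusted p under 0.05. The p38i points lie left of 0 for all 41 genes on day 5 and close up to 0 on day 7, when 12 are filled on the left and 1 on the right.

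The planned difference of differences between day 7 and day 1 was called for 9 genes in p38i, 4 higher against 14.1% of all genes and 5 lower against 7.55%. Irf1 (-1.02 ± 0.27 SE, adjusted p = 0.0116, limma), which was not below DMSO on day 1, was below it on day 7. Oas3 had an estimate of -0.90 ± 0.19 (adjusted p = 0.00216, limma). It was at 0 in both arms on day 1, so this restates its day 7 difference. Irf7, already low on day 1, moved towards DMSO (0.91 ± 0.23, adjusted p = 0.00766, limma). Quantile normalization gave 2 higher and 6 lower, and without p38i d7 replicate 2 there were 4 in all. The pre-p38i estimates of Oas1a and Herc6 lean on small whole numbers on day 1. Oas1a was then 2 and 2 against 4 and 4 in DMSO, and Herc6 2 and 3 against 5 and 3. In pre-p38i 4 genes were higher, against 7.25% of all genes: Oas1a (1.19 ± 0.18, adjusted p = 8.58e-05), Herc6 (1.02 ± 0.28, adjusted p = 0.0169), Bst2 (0.66 ± 0.12, adjusted p = 0.000795) and Parp12. Without DMSO d7 replicate 1 or pre-p38i d7 replicate 2 there were 2, and without pre-p38i d1 replicate 2 there were 7.

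The other genes of the pathway were taken from fixed lists. Of 20 interferon ligand genes, 18 were listed at 0 in all 28 libraries, among them Ifnb1, the interferon that fibroblasts make, and all listed Ifna genes. Ifnz was 1 in 1 MEF library, and Ifng was 1 in 1 DMSO day 5 library, 1 and 2 in pre-p38i on day 3, and 1 in 1 pre-p38i library on day 5 and on day 7. None of the 20 could be tested, and values rounded down to 0 do not show absence. Transcripts of the receptor were present throughout, with Ifnar1 at 37 to 61 and Ifnar2 at 35 to 60.

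Jak1, a kinase of the receptor, had in p38i a log2 difference of 0.02 on day 5 (adjusted p = 0.846, limma). It was higher than DMSO on day 7 (0.38, adjusted p = 7.71e-05). Jak1 does not stand for the other kinases and STATs. On day 5 Tyk2 was 8 and 8 in p38i against 9 and 9 in DMSO, and Stat3 92 and 88 against 101 and 113. Jak2 overlapped, at 24 and 23 against 22 and 28. Of the 6 negative regulators, 1 was lower in p38i on day 5, beside 18.7% of all genes lower. Ptpn11, a phosphatase among them, was instead higher, at 90 and 86 against 71 and 80 (0.22, adjusted p = 0.022, limma). Socs1, which blocks JAK kinases, was the lower one, at 5 and 9 against 16 and 15 (-1.09 ± 0.25 SE, adjusted p = 0.00315, limma). In pre-p38i on day 5, where 14.3% of all genes were higher, Socs1 was higher, at 29 and 24 (0.73, adjusted p = 0.0387, limma). Of the 17 sensors and adaptors tested of 20 listed, 4 were lower in p38i on day 5, a share near the 18.7% of all genes. Samhd1, which depletes nucleotides, was among them, at 42 and 30 against 87 and 88 (-1.28 ± 0.11, adjusted p = 6.95e-08), and was higher in pre-p38i at 141 and 150 (0.73, adjusted p = 6.16e-05). Of the 5 receptor genes tested, none was called in p38i on day 5 and 3 were higher on day 7, Ifnar1, Ifngr1 and Ifngr2, beside 16.5% of all genes.

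Among genes outside the list whose mean reached 5, those whose 14 group means were most like the mean of the 41 genes were Tgtp1 (Pearson r = 0.996), Apol9b (0.995), Cwc27 (0.994), Parp10 (0.993) and Apol9a (0.993), followed by Ddx24 (0.992), Gbp9, Rnf213 and Tmem106a (0.990 each) and Rnase1 (0.989). These correlations are over 14 group means from the same 28 libraries and are given as a description. Tgtp1, an interferon-inducible GTPase, had group means of 0 in MEF, 521 on day 3 in DMSO, 38 in p38i and 1038 in pre-p38i.

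Markers of macrophages, cells that also express ISGs, were measured beside these results, and fewer cells of a type and less RNA per cell cannot be told apart in bulk RNA. The 16 markers summed to 345 and 323 in MEF, where the 41 genes were low, and in DMSO to 449 and 458 by day 3, 492 and 496 by day 5 and 264 and 262 by day 7. In p38i they summed to 265 and 253, 225 and 235, and 244 and 208 on the same days. In pre-p38i they summed to 189 and 176, 111 and 105, and 55 and 43. On days 3 and 5 the marker sum was below that of DMSO in both inhibitor arms. The order of the 41 genes on day 3 was part of their choice and is not set against the markers. On day 5 their sum was 3774 and 3688 in p38i, 7170 and 7175 in DMSO, and 7226 and 7648 in pre-p38i. In pre-p38i on that day 2 of the 41 genes were called, and 11 of 39 had a mean below DMSO. The markers did not all move together. Cd68 in p38i was 87 and 76 on day 3 and 60 and 67 on day 5, against 76 and 70, then 44 and 51, in DMSO. Of the 13 markers tested, 9 were lower in p38i on day 5, beside 18.7% of all genes. Lyz2 alone gave 98 to 275 of the sum in DMSO from day 3. Of the defining markers, C1qa was 24 and 23, C1qb 25 and 20, C1qc 26 and 25 and Adgre1 11 and 14 in DMSO on day 5, Fcgr1 was at 0 to 2 and Cx3cr1 at 0 in all induced libraries. The part of these markers in the results was not tested. Of 7 markers of T, NK and plasmacytoid dendritic cells, 6 were at 0 in all 28 libraries, while Cd3g reached 52 and 50 in DMSO on day 5 against 6 and 6 in p38i.

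The values of the genes of the delivered factors, in which viral and endogenous transcripts cannot be told apart, also differed between arms on day 1. Pou5f1, Sox2 and Klf4 summed to 4848 and 4494 on day 1 in DMSO, 3854 and 3755 in p38i and 5894 and 6020 in pre-p38i. On day 5 the sums were 4641 and 4936, 4084 and 3699, and 4779 and 4707, so that DMSO and pre-p38i overlapped. The 8 fibroblast markers summed to 7464 and 6951 on day 3 in DMSO, 6054 and 5911 in p38i and 4998 and 5120 in pre-p38i, and on day 5 to 4672 and 5233, 5255 and 5094, and 3521 and 3335. The p38i sums join opposite changes. On day 5 Vim was 3557 and 3388 in p38i against 2530 and 2787 in DMSO, while Col1a1 was 295 and 270 against 418 and 507. The mitochondrially encoded share on day 5 was 4.83% and 4.54% in DMSO, 6.09% and 6.12% in p38i and 3.74% and 3.73% in pre-p38i. The part of these differences in the results for the 41 genes was not tested.

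**Figure D5:**
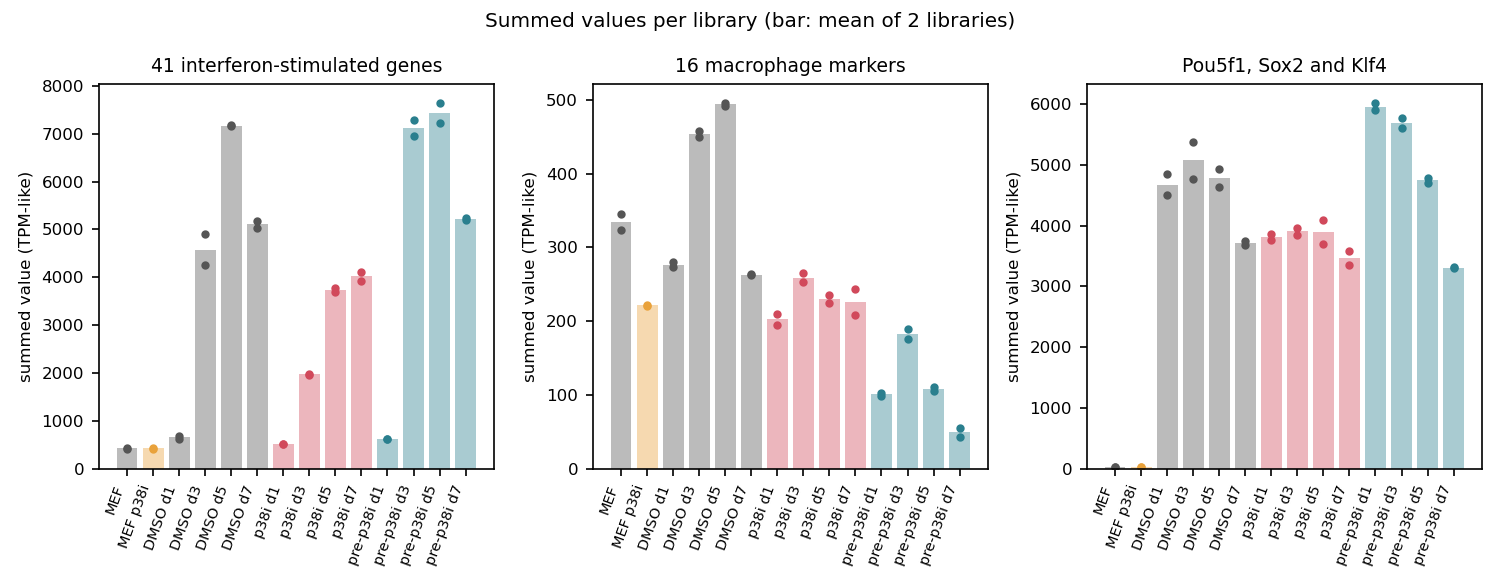
Summed values of the 41 genes, of 16 macrophage markers and of Pou5f1, Sox2 and Klf4 in each library (points), with bars for the mean of 2 libraries, by group; each panel has its own axis from 0. The 41 genes, chosen in part from their day 3 values, are highest in DMSO on day 5 and in pre-p38i on days 3 and 5. The macrophage markers are lowest in pre-p38i, and the factors are already high on day 1.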

How the data were processed

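The deposited table held whole-number values for 50600 genes in 28 libraries. The submitters' processing notes name bcl2fastq, Bowtie2 2.2.5, RSEM 1.3.0 and the mouse build mm10, with a human build also listed. The values were read as a score, TPM that the authors had rounded down to whole numbers before they deposited them, since each library summed to nearly the same total, 991287 to 992537. Depth is not known from such values, so no counting interval is given. The strand setting of the counting is not given in the sources used here, and the kit and RNA extraction are named differently in the labels and in the study's methods.

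Groups came from the labels. Differences were fitted with limma 3.58.1 in R 4.3.3 (lmFit and eBayes with a trend) on log2(value + 1) over all 14 groups and the 13230 genes whose mean reached 1. The method was tested on simulated data. P-values were adjusted by Benjamini-Hochberg over all genes tested. Values in every library are printed for the 3 genes of each role group with the highest mean and for the 4 regulators, and a comparison names the 3 largest called changes in each direction, genes against the main direction, and genes not called where most were. The members, the gene lists and the comparisons were chosen with earlier results of these data known. Replicate numbers were not used to pair the libraries, since the correlations of their deviations over 91 pairs of groups were -0.0838 to 0.0874. These show no shared replicate effect, but cannot tell whether libraries of the same number were made together. The alternatives tried were quantile normalization, no filter on low values, a pseudocount of 0.1, a higher minimum mean (5), a fit of only the groups compared, a replicate block and leaving out each library. Near-identical transcripts (95% over 200 bases) were found with BLAST 2.17.0+ among GENCODE M21 transcripts, and figures were drawn with matplotlib 3.10.9. No protein sequence was used. 1 gene of the pathway is not reported here.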

Additional observations from a re-analysis of the deposited data

Results flagged for a closer look

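The results below differed between days under the same contrast, by a test of the difference itself (limma, adjusted over all genes). Against DMSO, 9 of the 41 genes differed between day 7 and day 1 in p38i and 4 in pre-p38i. In p38i, Irf1 moved by -1.02 on the log2 scale, downwards relative to DMSO, and Irf7 by 0.91, upwards. Oas3 had an estimate of -0.90, but it was at 0 in both arms on day 1, so this restates its day 7 difference. In pre-p38i, Oas1a moved by 1.19, Herc6 by 1.02 and Bst2 by 0.66, all upwards relative to DMSO. The first 2 lean on small whole numbers on day 1, Oas1a at 2 and 2 against 4 and 4 and Herc6 at 2 and 3 against 5 and 3. Between day 7 and day 5, in a comparison added after the values were seen, 14 genes differed in p38i, led by Irf1 (1.55), Ifit3b (1.41) and Parp14 (1.19), and 0 in pre-p38i, where limma gave 2 genes at an unadjusted p under 0.05. Irf1 in p38i thus moved down against DMSO from day 1 to day 7 but up from day 5 to day 7. With 2 libraries a group, no group was large enough for a search for outlying libraries.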

How the results depend on the processing

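Of the counts of called genes in both directions together, those for DMSO day 3 against day 1, DMSO day 1 against MEF (though not its split, 23 higher and 1 lower against 15 and 6 with quantile normalization), and p38i against DMSO on day 5 changed by less than 1.5 times in every alternative, and over 931 refits of 88 values of named genes 149 lost the call and 0 reversed, Ifit1 from MEF to day 1 not counted among them. Quantile normalization moved the median of all genes by over 0.1 in 2 more comparisons, p38i against DMSO on day 3 (-0.08 to 0.04) and day 5 (-0.08 to 0.03), where the median of the 41 genes went from -1.18 to -1.03 and from -0.90 to -0.84. Fitting only the groups compared left 1 gene called in MEF p38i against MEF (7 with all groups), 4 from day 3 to day 5 in DMSO (26), 2 in p38i on day 1 (11), 20 in p38i on day 3 (40), 2, 9, 5 and 4 in pre-p38i on days 1, 3, 5 and 7 (4, 31, 2 and 7), and 9 for p38i between days 7 and 5 (14). A pseudocount of 0.1 left 14 from day 3 to day 5 in DMSO, 0 and 3 in pre-p38i on days 5 and 7, and 7 for p38i between days 7 and 5. Without a filter there were 4 in pre-p38i on day 7 and 1 for pre-p38i between days 7 and 5, and with quantile normalization 7 in p38i on day 1 and again 1 for the latter. The replicate block left 1 call in pre-p38i on day 5 and moved no other count by over 1.5 times. The ISRE core with 1 base of spacing was in 8 promoters, against 14.

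Leaving out 1 library at a time gave 7 to 9 calls in MEF p38i, 22 to 24 from MEF to day 1, 39 to 41 from day 1 to day 3, 10 (without DMSO d3 replicate 1) to 24 from day 3 to day 5, and 17 to 23 from day 5 to day 7 in DMSO. In p38i it gave 7 to 13, 36 to 40, 33 to 35 and 8 to 10 on days 1, 3, 5 and 7, and in pre-p38i 3 to 7, 22 to 29, 0 to 1 and 1 to 4. The differences between days 7 and 1 ranged from 4 to 11 in p38i and from 2 to 7 in pre-p38i, and those between days 7 and 5 from 3 to 9 and 0. Within arms, day 7 against day 5 gave 0 in p38i and 22 to 24 in pre-p38i. The lone library left in a group was assumed to vary like the other groups. The cause of these shifts was not tested. Rounding to whole numbers limits genes near 1, and depth is unknown.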
